A study of Mus musculus with 8 samples.

Results

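Expression of 10 Kruppel-like factor genes was examined in sorted luminal cells of the mouse mammary gland. The genes were Klf2, Klf3, Klf4, Klf5, Klf6, Klf7, Klf9, Klf10, Klf13 and Klf15, taken by symbol from the RefSeq annotation of the Entrez Gene IDs in the deposited table. They are 10 of the 24594 genes listed, and 8 of them had enough reads to be tested. Klf2 and Klf15 did not and are described by their reads. RNA came from luminal progenitors (LP), sorted as c-Kit high, and from mature luminal cells, sorted as c-Kit low, with 4 libraries each. All libraries came from untreated wild type C57BL/6J mice, and the source was the virgin mammary gland. The labels give no age, and the study's methods give a range of weeks for its mice without one for these samples. Those methods name biological replicates, though fewer per condition than these libraries. The labels do not state that replicates came from separate animals, so p-values measure the spread between these libraries, which may in part be technical. The labels name EpCAM, CD49f, c-Kit and CD14 as the sorting markers, while the study's text names c-Kit for these fractions, so the level of Kit followed from the gate and that of Cd14 may have. RNA was amplified as cDNA with a low-input kit before sequencing.

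Kruppel-like factors are transcription factors that bind GC-rich and CACCC sequences of promoters through C-terminal zinc fingers of the Cys2-His2 type. Their N-terminal parts differ and recruit coactivators or corepressors, so that some members mostly activate and others mostly repress transcription. Several members are induced rapidly by serum, stress or hormones, and members such as Klf4 and Klf5 are known regulators of epithelial cell growth and differentiation.

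The zinc fingers are the feature the members share, and the coding sequence of the last finger is shown for the 4 members that differed between fractions and for Klf7, whose finger bases were closest to those of Klf6. Sequences were read 5′ to 3′ from the GENCODE transcripts of GRCm38 (mm10), and capitals mark the codons of the cysteine pair and the histidine pair that hold the zinc ion.
Klf6 last finger: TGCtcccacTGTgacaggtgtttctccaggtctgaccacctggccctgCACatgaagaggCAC
Klf7 last finger: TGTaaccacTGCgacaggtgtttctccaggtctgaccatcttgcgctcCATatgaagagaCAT
Klf5 last finger: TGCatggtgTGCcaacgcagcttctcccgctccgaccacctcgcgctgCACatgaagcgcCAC
Klf9 last finger: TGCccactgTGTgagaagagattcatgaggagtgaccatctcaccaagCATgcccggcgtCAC
Klf13 last finger: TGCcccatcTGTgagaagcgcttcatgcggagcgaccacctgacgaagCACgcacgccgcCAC

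In each of the 10 members 3 such fingers were found, over 243 coding bases from the first cysteine codon to the last histidine codon. Klf6 and Klf7 were identical at 81.1% of these bases, the highest value among the pairs of members, and Klf9 and Klf13 at 72.8%. The longest run that any pair shared was 26 bases, between Klf6 and Klf7, which is shorter than the 51-base reads of the experiment. No stretch of 51 bases in the exons of one member occurred in another, so a full-length, error-free exonic read of one member could not be placed on another. Reads shortened by trimming were kept by the authors, and one as short as the run shared by Klf6 and Klf7 could match both.

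The library totals lay between 4410049 and 7791593 counts on genes, and 12816 genes were tested. Libraries of the same fraction differed by more than counting noise in each of the 12 pairs. By the test described next, 4 of 5 LP markers were higher in LP and 6 of 6 mature luminal markers were higher in mature cells. Of those 4, Kit and Cd14 are no separate support for the labels, since Kit followed from the gate and Cd14 may have. Elf5, Trps1 and the mature luminal markers were not named as sorting markers. Summed levels of basal markers were 18.2 to 49.6 CPM (read counts brought to the same library size) in LP and 15.9 to 79.4 in mature libraries, and the corresponding ranges were 3.88 to 10.1 and 2.25 to 10.5 for endothelial markers, 3.19 to 7.8 and 3.46 to 4.99 for immune markers, and 0.719 to 6.38 and 0.722 to 3.66 for adipocyte markers. Of the defining markers, Kdr, Lep, Cd3e, Cd3g, C1qa and Tyrobp had no read in any library. Others on the same lists were detected, with up to 8.19 CPM for Pecam1, 7.47 CPM for Csf1r and 6.38 CPM for Fabp4, each in an LP library. Summed LP markers were 426, 577, 1354 and 981 CPM in mature replicates 1 to 4, and 14133 to 20561 CPM in LP. Summed mature luminal markers were 5512, 5124, 4370 and 6145 CPM in mature replicates 1 to 4. Mature replicate 3 thus had the most LP and basal and the least mature luminal marker RNA of the mature libraries. The part of other cells in this library was not tested.

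Of the 8 members tested, Klf5, Klf6 and Klf9 were lower in LP than in mature cells, Klf13 was higher in LP, and Klf3, Klf4, Klf7 and Klf10 did not pass the test. Counts were scaled to CPM with TMM factors and compared with edgeR's quasi-likelihood test, and a gene was called when its p-value, adjusted by Benjamini-Hochberg over all genes tested, was under 0.05. The same test called 24.7% of all genes tested, 10.9% as higher and 13.8% as lower in LP. The libraries of the fractions did not overlap for 4 of the 8 members, the same 4 that were called, against 29.5% of all genes tested. The median log2 fold change (LP over mature) was -0.13 over the 8 members and 0.00 over all genes tested. In bulk RNA a lower level can come from fewer cells that express a gene or from less RNA per cell, and these cannot be told apart. Klf5, Klf6 and Klf9 also belong to a mature luminal gene set that the study drew from these samples, so that set is not independent evidence of their direction.

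**Figure D1:**
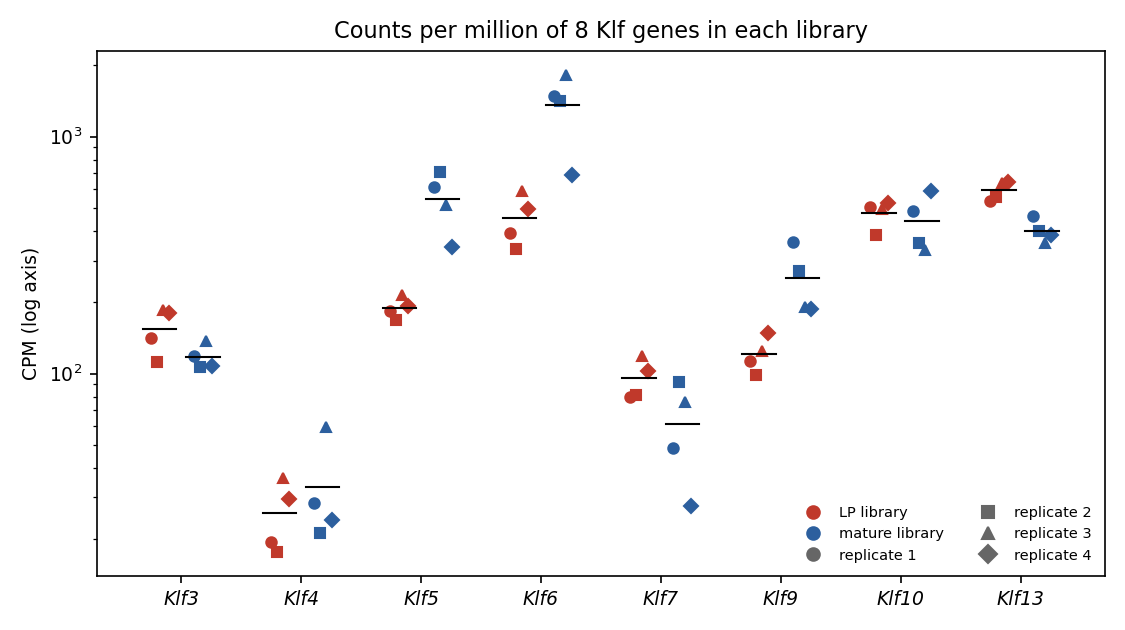
Level of the 8 tested Kruppel-like factor genes in every library, in CPM on a log axis, with LP in red, mature cells in blue, a marker shape per replicate and the mean of 4 libraries as a black line. The LP and mature points of Klf5, Klf6, Klf9 and Klf13 do not overlap, and those of the other 4 genes do.

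Klf6 encodes a widely expressed activator known for the induction of the cell cycle inhibitor p21. It lies on chr13:5861489-5870393 on the plus strand of mm10 and has Entrez Gene ID 23849. Klf6 measured 391, 337, 590 and 494 CPM in LP replicates 1 to 4, and 1491, 1420, 1827 and 691 CPM in mature replicates 1 to 4. Every mature library lay above every LP library, and mature replicate 4 was the nearest to LP. The means were 453 ± 112 CPM in LP and 1357 ± 478 CPM in mature cells (SD, n = 4 each), from 12150 and 33254 reads. The log2 fold change was -1.58 with a standard error (SE) of 0.297, a 95% interval from -2.24 to -0.93 and an adjusted p of 0.00378 in edgeR's quasi-likelihood test, a level 3.0-fold higher in mature cells. A two-sided exact permutation test of the 8 CPM values gave p = 0.0286, the smallest that 4 against 4 libraries allow. Without mature replicate 3, the highest library, the log2 fold change was -1.37, and without mature replicate 4 it was -1.78.

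Klf5 encodes an activator that supports proliferation in many epithelia and is degraded after ubiquitination by Fbxw7 and Wwp1. Its position is chr14:99298691-99313412 on the plus strand, with Entrez Gene ID 12224. Klf5 measured 184, 168, 214 and 194 CPM in LP replicates 1 to 4, and 612, 706, 517 and 341 CPM in mature replicates 1 to 4. The LP libraries lay close together and all below the mature ones, of which replicate 4 was the lowest, as it was for Klf6. With means of 190 ± 19.4 and 544 ± 156 CPM (SD, n = 4 each), Klf5 was 2.87-fold higher in mature cells. Its log2 fold change was -1.52 (SE 0.222, 95% interval -2.01 to -1.03, adjusted p = 0.00112 in edgeR's quasi-likelihood test).

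Klf9 encodes a repressor-type factor whose transcription is induced by glucocorticoids and thyroid hormone. The gene lies on chr19:23141226-23168129 on the plus strand, Entrez Gene ID 16601. Klf9 measured 113, 98.2, 125 and 148 CPM in LP replicates 1 to 4, and 361, 270, 191 and 188 CPM in mature replicates 1 to 4. Mature replicates 1 and 2 stood above the other two mature libraries, which were still above every LP library. The means were 121 ± 21.1 CPM in LP and 252 ± 81.6 CPM in mature cells (SD, n = 4 each), 2.09-fold higher in mature cells. The log2 fold change was -1.06 (SE 0.234, 95% interval -1.58 to -0.55, adjusted p = 0.00819 in edgeR's quasi-likelihood test). The call was lost when both libraries numbered 1 were left out (log2 fold change -0.80, adjusted p = 0.0560) or both numbered 2 (-0.92, adjusted p = 0.0652, same edgeR test). The same mature replicates 1 and 2 had the highest summed level of fibroblast and pericyte markers, at 141 and 179 CPM against 28.3 and 27.1 CPM in mature replicates 3 and 4 and 19.98 to 42.3 CPM in LP. A single gene, the proteoglycan gene Dcn, singled out after its values had been seen, made up 132 and 154 CPM of these sums, while the collagen gene Col1a1 had no read in either library. Of the 8 markers on that list 4 were tested and 0 were called by edgeR's quasi-likelihood test or by DESeq2. At an unadjusted p under 0.05, 1 was lower in LP by edgeR's quasi-likelihood test and 2 were by DESeq2. By edgeR's likelihood ratio test 1 was called lower in LP. The same number was called with a replicate block, under a filter of 10 reads per library and without mature replicate 3. Pdgfrb had no more than 0.151 CPM in any library. Pdgfra had 0.562 and 16.3 CPM in mature replicates 1 and 2, against 2.74 and 0.151 CPM in mature replicates 3 and 4. Lum had 2.67 and 5.52 CPM in mature replicates 1 and 2, and 3.61 and 5.27 CPM in mature replicates 3 and 4. The LP means were 6.78 ± 2.26 CPM for Pdgfra and 0.902 ± 1.23 CPM for Lum (SD, n = 4 each). For Klf9, mature replicates 3 and 4, whose marker sums lay in the LP range, were above every LP library. The part of such cells in the Klf9 difference was not tested.

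Klf13 encodes a repressor that recruits the Sin3a corepressor, as Klf9 does, and is the closest relative of Klf9 among the members. It lies on chr7:63886351-63938915 on the minus strand, Entrez Gene ID 50794. Klf13 measured 535, 555, 638 and 642 CPM in LP replicates 1 to 4, and 461, 398, 356 and 385 CPM in mature replicates 1 to 4. Here the LP libraries were the higher ones, with no overlap and little spread in either fraction. Means of 593 ± 55.6 CPM in LP and 400.1 ± 44.3 CPM in mature cells (SD, n = 4 each) corresponded to a log2 fold change of 0.57, or 1.48-fold (SE 0.155, 95% interval 0.23 to 0.91, adjusted p = 0.0220 in edgeR's quasi-likelihood test). This was the smallest of the called changes. The call was lost without LP replicate 3 (adjusted p = 0.0532) or LP replicate 4 (adjusted p = 0.0617), and without both libraries numbered 2, 3 or 4 (adjusted p = 0.0743, 0.0757 and 0.1001), in each case by edgeR's quasi-likelihood test.

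**Figure D2:**
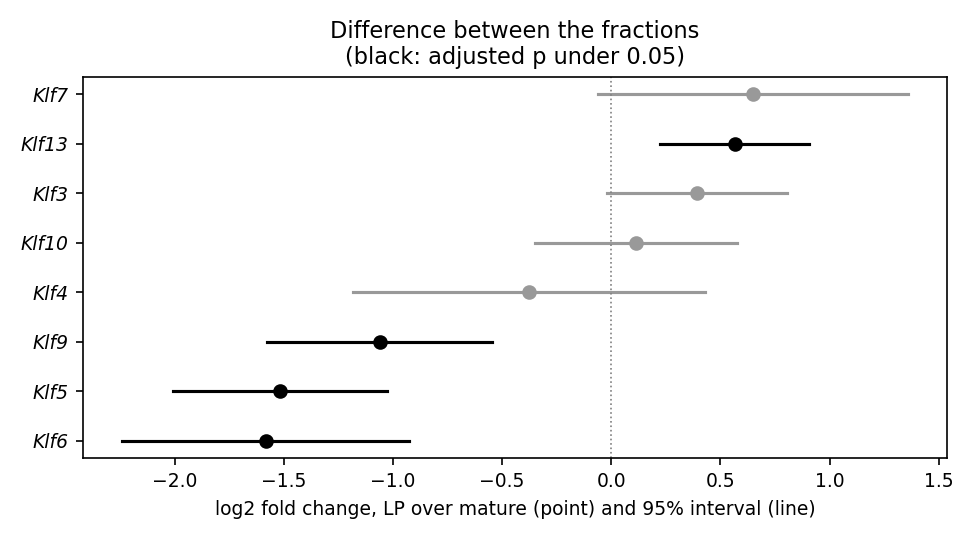
Log2 fold change (LP over mature) of the 8 tested members, with 95% intervals from edgeR's quasi-likelihood fit. Black points are members with an adjusted p under 0.05. Klf6 at -1.58, Klf5 at -1.52 and Klf9 at -1.06 lie left of 0, Klf13 at 0.57 lies right of it, and the intervals of the other 4, in grey, include 0.

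Klf7, the closest relative of Klf6 in the finger bases, encodes a factor best known from neurons and fat cell differentiation (chr1:64029448-64122345, minus strand, Entrez Gene ID 93691). It measured 79.4, 81.4, 118 and 102 CPM in LP replicates 1 to 4, and 48.4, 91.7, 76.1 and 27.7 CPM in mature replicates 1 to 4. The fractions overlapped, since mature replicate 2 was above LP replicates 1 and 2. The log2 fold change was 0.65 (SE 0.321, 95% interval -0.06 to 1.36, adjusted p = 0.167 in edgeR's quasi-likelihood test). Of the exon bases of Klf7, 39.3% lie opposite exons of the lincRNA Gm26649, which is not in the table, and since the strand setting of the counting is not given in the sources used here, reads from both cannot be told apart there. Within each library Klf6 was 4.14 to 4.99 times the CPM of Klf7 in LP, and 15.5 to 30.8 times in mature cells. The pair with the most similar fingers thus had log2 fold changes of opposite sign, with only that of Klf6 called. The ratio of Klf9 to Klf13 in CPM was 0.177 to 0.230 in LP and 0.488 to 0.782 in mature libraries, and both genes of that pair were called, in opposite directions. Both ratios were chosen after the values had been seen and are given as a description.

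Klf3 encodes a repressor that recruits the Ctbp corepressors (chr5:64803521-64832901, plus strand, Entrez Gene ID 16599). It measured 141, 112, 185 and 180 CPM in LP replicates 1 to 4, and 118, 107, 138 and 108 CPM in mature replicates 1 to 4. In each of the 4 number-matched pairs LP was higher, but LP replicate 2 lay within the mature range, and the log2 fold change of 0.39 did not pass the test (SE 0.187, 95% interval -0.02 to 0.81, adjusted p = 0.151 in edgeR's quasi-likelihood test).

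Klf10 encodes a repressor induced rapidly by TGF-beta (chr15:38291464-38300711, minus strand, Entrez Gene ID 21847). Its levels were 505, 384, 495 and 522 CPM in LP replicates 1 to 4, and 485, 356, 332 and 587 CPM in mature replicates 1 to 4. The highest and the lowest of the 8 libraries were both mature, and the log2 fold change was 0.12 (SE 0.210, 95% interval -0.35 to 0.58, adjusted p = 0.728 in edgeR's quasi-likelihood test). Klf10 was thus abundant in both fractions, and its interval leaves room for a change of up to 0.58 on the log2 scale in favour of LP.

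Klf4, a factor of epithelial differentiation and of pluripotency, was far lower (chr4:55527137-55532475, minus strand, Entrez Gene ID 16600). It measured 19.5, 17.7, 36.2 and 29.4 CPM in LP replicates 1 to 4, and 28.4, 21.3, 59.3 and 24.1 CPM in mature replicates 1 to 4. Replicate 3 was the highest in both fractions, and the other mature libraries lay within the LP range. The log2 fold change of -0.38 did not pass the test (SE 0.365, 95% interval -1.19 to 0.43, adjusted p = 0.489 in edgeR's quasi-likelihood test), and without mature replicate 3 it was 0.09.

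Klf2, known from endothelial cells and lymphocytes (chr8:72319062-72321654, plus strand, Entrez Gene ID 16598), had 3, 7, 9 and 17 reads in LP replicates 1 to 4 and 1, 0, 11 and 0 reads in mature replicates 1 to 4. Klf15, a regulator of metabolism in muscle, liver and fat (chr6:90461043-90491803, plus strand, Entrez Gene ID 66277), had no read in any LP library and 17 reads in the mature fraction, all of them in replicate 3. In a library without a read, a count of 0 allows up to 3 counts, which is 0.416 to 0.788 CPM over the 8 libraries. Both genes were therefore close to or under the limit of detection in most libraries, and no fold change is given for them. These limits cover counting error only.

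Levels of different genes were compared after division by the length of their annotated exons (CPM per kb). In LP, Klf10 with 114 ± 15.0 and Klf6 with 103 ± 25.5 CPM per kb were the highest members (SD, n = 4), followed by Klf13 with 78.7 ± 7.39, Klf5 with 36.5 ± 3.73 and Klf9 with 25.1 ± 4.37 CPM per kb. Neighbours in this order whose libraries overlapped were Klf10 and Klf6 as well as Klf6 and Klf13. Klf3, Klf7 and Klf4 followed at 13.7 ± 3.05, 11.7 ± 2.27 and 8.42 ± 2.85 CPM per kb, and Klf3 overlapped with Klf7 and Klf7 with Klf4.

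In mature cells Klf6 was the highest member with 309 ± 109 CPM per kb (SD, n = 4), with no overlap with the next, Klf10 at 105 ± 28.4 CPM per kb. Klf5 was level with Klf10 at 105 ± 30.0 CPM per kb. Klf13 with 53.1 ± 5.88 and Klf9 with 52.4 ± 17.0 CPM per kb overlapped as well, whereas in LP these genes were apart. Klf4, Klf3 and Klf7 were again low, at 10.9 ± 5.78, 10.5 ± 1.27 and 7.497 ± 3.504 CPM per kb. The level of all 10 members together was 321 to 448 CPM per kb in LP libraries and 475 to 735 in mature libraries. Klf6 made up 23.9 to 30.0% of this sum in LP and 33.2 to 57.4% in mature cells, while the share of Klf13 was 18.9 to 22.9% in LP and 6.53 to 10.8% in mature cells. The share of Klf10 overlapped between fractions, with 26.4 to 32.8% in LP and 10.98 to 29.6% in mature cells, and mature replicate 4 was the library with the highest of these mature shares.

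**Figure D3:**
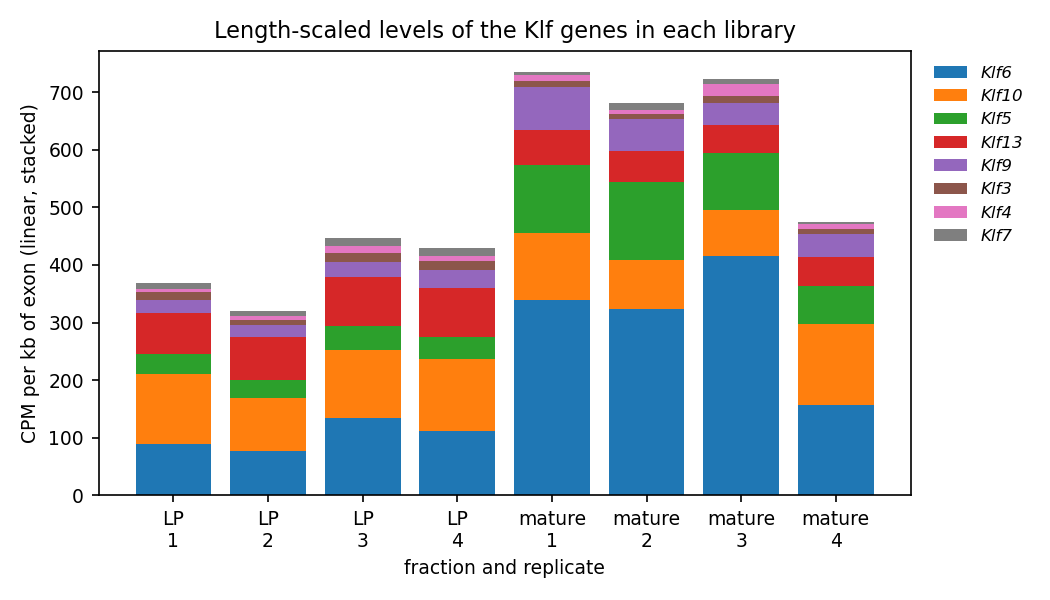
Levels of the 8 tested members in each of the 8 libraries as stacked bars on a linear axis, in CPM per kb of annotated exon, one colour a gene. Klf2 and Klf15, at under 2 CPM per kb in each library, are not drawn. Every mature bar is higher than every LP bar, and the Klf6 segment is the largest in each mature library.

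Libraries at the edge of their fraction were often the same for several members. Mature replicate 4 had the lowest mature level of Klf5, Klf6, Klf7 and Klf9 and the highest of Klf10. Among the LP libraries, replicate 3 had the highest level of Klf3, Klf4, Klf5, Klf6 and Klf7, and replicate 2 the lowest of Klf3, Klf4, Klf5, Klf6, Klf9 and Klf10.

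Among the genes whose levels followed Klf6 most closely over the 8 libraries were Jun, Rnps1, Ccng2 and Slc5a3, with Pearson correlations of log2 CPM of 0.98, 0.97, 0.97 and 0.97 among 5362 genes with a mean of at least 5 log2 CPM. These correlations rest on 8 libraries in 2 groups that differ for each of these genes, and are a description only. Jun, a subunit of the AP-1 transcription factor, measured 231, 174, 347 and 230 CPM in LP replicates 1 to 4 and 1326, 1077, 1143 and 502 CPM in mature replicates 1 to 4. As with Klf6, mature replicate 4 was the lowest mature library and LP replicate 3 the highest LP library. Log2 fold changes were -2.04 for Jun, -0.61 for the splicing factor gene Rnps1, -0.84 for the cyclin gene Ccng2 and -1.35 for the inositol transporter gene Slc5a3. Adjusted p-values of these genes in edgeR's quasi-likelihood test were 0.00140, 0.0354, 0.0193 and 0.00570. Among the members, Klf5 correlated with Klf6 at 0.95 and stood at position 16 of the ranked genes, Klf9 at 0.86 at position 300, and Klf4 at 0.58. Negative values were found for Klf7 (-0.20), Klf3 (-0.28), Klf10 (-0.46) and Klf13 (-0.73).

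**Figure D4:**
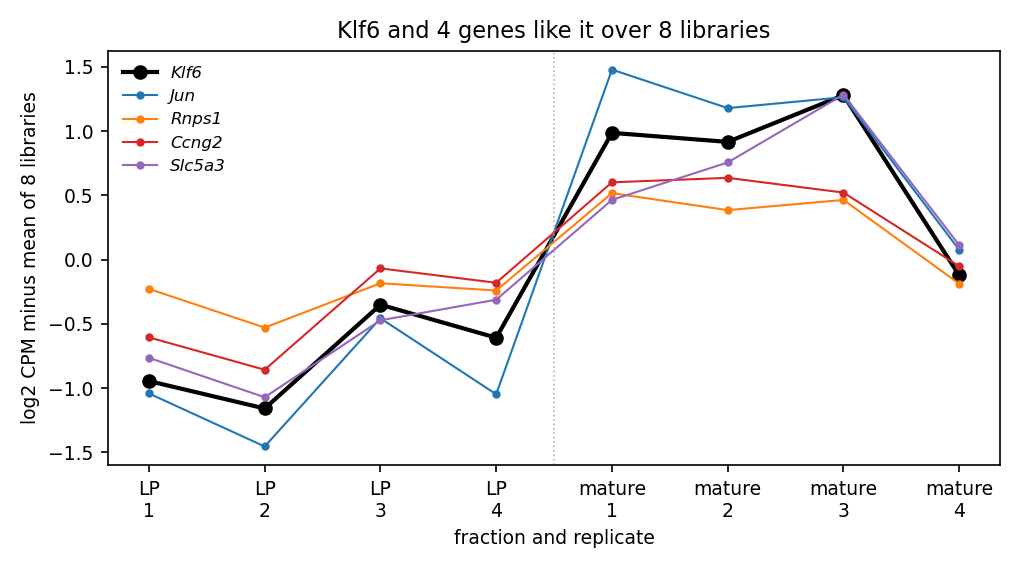
Klf6 (black) and 4 genes with correlations of 0.97 to 0.98 with it, as log2 CPM minus the mean of each gene over the 8 libraries, with fraction and replicate on the other axis. In each of these genes mature replicate 4 is the lowest mature library, as for Klf6.

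Klf6 and Jun are among the genes that rise quickly when cells are stressed or dissociated, and a list of 20 immediate-early and dissociation genes was therefore examined in the same libraries. Of these, 19 were tested, 9 were lower and 2 higher in LP by edgeR's quasi-likelihood test, with a median log2 fold change of -0.55 against 0.00 over all genes tested. Among all genes tested, 13.8% were called as lower and 10.9% as higher in LP. The genes with the smallest p-values were Atf3 (log2 fold change -3.12, adjusted p = 0.000859), Jun, and in the other direction the rapidly induced genes Ier2 (1.40, adjusted p = 0.00102) and Egr3 (6.52, adjusted p = 0.00197), by the same edgeR test. Egr3 had no read in 3 of the 4 mature libraries, so its fold change depends on the count added in the fit. Egr1 was 188 to 204 CPM in LP and 45.3, 29.9, 210 and 58.0 CPM in mature replicates 1 to 4, and was not called (1.17, adjusted p = 0.113). Without mature replicate 3, Egr1 was called as higher in LP (2.15, adjusted p = 0.00024, same edgeR test). In that fit Junb was called as lower in LP (-0.62, adjusted p = 0.0430), and Btg2 and Myc lost their calls as lower. The summed level of the list was 1959 to 2635 CPM in LP and 4797, 4287, 16085 and 4240 CPM in mature replicates 1 to 4. Hspa1a and Hspa1b, heat shock genes that are near-identical copies and so uncertain, were singled out after their values had been seen, since they made up most of the sum of mature replicate 3. Without them the sum was 1873 to 2278 CPM in LP and 3930, 3774, 4053 and 2324 CPM in mature replicates 1 to 4. On that scale mature replicate 4, the lowest mature library for Klf6, Klf5 and Klf9, was the one closest to LP. The pair left out was higher in mature replicate 4 than in mature replicates 1 and 2. Hspa1a measured 584, 346, 8253 and 1309 CPM and Hspa1b 283, 167, 3779 and 607 CPM in mature replicates 1 to 4. With the pair kept, the sum of mature replicate 4 was about level with that of mature replicate 2. The part of such a response in the levels of Klf6 was not tested.

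Klf9 is a target of the glucocorticoid receptor, and 8 genes of this pathway were examined beside it. Of these, 4 were lower and 0 higher in LP by edgeR's quasi-likelihood test, with a median log2 fold change of -0.42 over the list. The shares over all genes tested were 13.8% lower and 10.9% higher in LP. At an unadjusted p under 0.05, 1 was higher in LP, and DESeq2 also called 0 as higher. The 4 genes were Tsc22d3, or Gilz (-1.55, adjusted p = 0.000726), the clock gene Per1 (-1.86, adjusted p = 0.00708), the transcription factor gene Zbtb16 (-2.11, adjusted p = 0.0227) and Errfi1, an inhibitor of EGFR signalling (-0.68, adjusted p = 0.0394), by the same edgeR test. The receptor gene Nr3c1 itself had a log2 fold change of 0.19 (adjusted p = 0.567) and Fkbp5, a target induced strongly by glucocorticoids, one of 1.10 in favour of LP (adjusted p = 0.110), and neither passed edgeR's test. With a replicate block 3 were lower and 1 was higher in LP, the last being Fkbp5 (1.28, adjusted p = 0.0324 in edgeR's quasi-likelihood test). Without mature replicate 3, 4 were lower and 2 were higher in LP, Fkbp5 (1.55, adjusted p = 0.0330) and the transcription factor gene Cebpd (0.66, adjusted p = 0.0272, same edgeR test), and without both libraries numbered 3, 4 were lower and Cebpd was higher in LP. The number called was 1 to 2 without LP replicate 1, 2 or 4, without mature replicate 1, or without both libraries numbered 1 or 2.

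Of 13 genes known from other work as targets of Kruppel-like factors, 11 were tested, 5 were lower and 1 was higher in LP by edgeR's quasi-likelihood test, and the median log2 fold change was -0.67. Over all genes tested, 13.8% were called as lower and 10.9% as higher in LP. Cdkn1a, which encodes p21, was lower in LP with 104 ± 21.0 CPM against 319 ± 108 CPM in mature cells (SD, n = 4 each, log2 fold change -1.61, adjusted p = 0.00167 in edgeR's quasi-likelihood test). Lower levels in LP were also found for Fgfbp1, a carrier protein of fibroblast growth factors (-2.17, adjusted p = 0.00154), for the cell cycle inhibitor gene Cdkn1b (-0.85, adjusted p = 0.00365) and for Eng, a TGF-beta coreceptor gene (-3.54, adjusted p = 0.00369), by the same edgeR test. Tgfbr1, a TGF-beta receptor gene, was the one higher in LP, with 44.7 ± 7.68 CPM against 9.80 ± 6.59 CPM (SD, n = 4 each, 2.17, adjusted p = 0.00417 in edgeR's quasi-likelihood test). The part of the members in the levels of these target genes was not tested.

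Proteins that act on Kruppel-like factors were represented by 14 genes of cofactors and ubiquitin ligases, all of them tested. By edgeR's quasi-likelihood test 4 of the 14 were higher and 0 lower in LP, and the median log2 fold change was -0.06. Over all genes tested 24.7% were called, 10.9% as higher and 13.8% as lower in LP. None of the 14 was lower in LP at an unadjusted p under 0.05 or by DESeq2. The ubiquitin ligase gene Fbxw7 measured 91.5, 101, 114 and 118 CPM in LP replicates 1 to 4 and 38.4, 40.5, 54.7 and 46.0 CPM in mature replicates 1 to 4. Fbxw7 did not overlap between fractions and was higher in LP (log2 fold change 1.24, SE 0.171, adjusted p = 0.000859 in edgeR's quasi-likelihood test). It acts on the Klf5 protein, which was not measured here, and a link to the level of Klf5 RNA was not tested. The ligase gene Wwp1 (1.16, adjusted p = 0.0270), the deacetylase gene Hdac3 (1.03, adjusted p = 0.00203) and the corepressor gene Ctbp1 (0.78, adjusted p = 0.0459) were also higher in LP by the same edgeR test. Without LP replicate 1 or 2, or without both libraries of either number, 2 of these genes were called.

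The rest of the Kruppel-like and SP family comprised 16 listed genes, of which 9 were tested, and Klf14, Sp5, Sp7 and Sp8 had no read in any library. By edgeR's quasi-likelihood test 2 were lower and 0 higher in LP, with a median log2 fold change of -0.65. This test called 13.8% of all genes tested as lower and 10.9% as higher in LP. At an unadjusted p under 0.05, 4 were lower and 0 higher, and DESeq2 called 3 as lower and 0 as higher. Sp3, a widely expressed factor that binds GC boxes, measured 66.9 ± 8.25 CPM in LP and 131 ± 40.8 CPM in mature cells (SD, n = 4 each, -0.97, adjusted p = 0.00988 in edgeR's quasi-likelihood test). The low-level gene Klf16 had 7.77 ± 3.55 CPM in LP and 22.9 ± 8.37 CPM in mature cells (SD, n = 4 each, -1.55, adjusted p = 0.0232 in the same edgeR test). Klf11, a relative of Klf10, had 61.3 ± 20.7 and 105 ± 40.9 CPM (SD, n = 4 each) and did not pass edgeR's quasi-likelihood test (-0.78, adjusted p = 0.0977). With a replicate block, without LP replicate 1, 2 or 4, without mature replicate 1 or 2, or without both libraries numbered 4, 1 of the 9 was called, and without both numbered 1 or both numbered 2, 0 were by edgeR's quasi-likelihood test, with 3 and 2 at an unadjusted p under 0.05.

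Promoter sequences were available for 8 of the 10 members in the RefSeq table of GRCm38.p6, and those of the called members Klf6, Klf9 and Klf13 are shown, as the 250 bases before the annotated start on the strand of the gene. Capitals mark matches, on either strand, to the GC box GGGCGG, the CACCC box, the AP-1 element TGANTCA and the CCAAT box. The positions are chr13:5861239-5861488 (plus strand) for Klf6, chr19:23140976-23141225 (plus strand) for Klf9 and chr7:63938916-63939165 (minus strand) for Klf13.
Klf6 promoter: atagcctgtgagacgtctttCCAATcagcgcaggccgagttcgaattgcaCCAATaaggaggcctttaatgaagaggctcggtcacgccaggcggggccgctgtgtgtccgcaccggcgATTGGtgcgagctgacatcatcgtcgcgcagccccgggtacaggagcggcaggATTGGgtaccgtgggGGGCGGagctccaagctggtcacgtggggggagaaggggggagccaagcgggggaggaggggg
Klf9 promoter: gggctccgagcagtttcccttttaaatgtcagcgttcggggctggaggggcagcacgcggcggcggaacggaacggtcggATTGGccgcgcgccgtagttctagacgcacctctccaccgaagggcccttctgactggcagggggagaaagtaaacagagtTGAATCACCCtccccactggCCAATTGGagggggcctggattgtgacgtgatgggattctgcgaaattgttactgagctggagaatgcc
Klf13 promoter: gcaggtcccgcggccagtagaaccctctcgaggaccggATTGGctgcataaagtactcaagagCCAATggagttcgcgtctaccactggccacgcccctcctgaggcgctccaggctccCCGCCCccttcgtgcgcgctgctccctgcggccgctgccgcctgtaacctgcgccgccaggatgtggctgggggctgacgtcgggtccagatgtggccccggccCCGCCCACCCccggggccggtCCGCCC

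The Klf6 promoter held 4 CCAAT boxes and 1 GC box and no CACCC box. In the Klf9 promoter 3 CCAAT boxes were found, with 1 AP-1 element that overlapped a CACCC box, and no GC box. The Klf13 promoter held 3 GC boxes, 2 CCAAT boxes and 1 CACCC box that overlapped a GC box. Over 32851 promoters of the same length, 33.85% held a CCAAT box, 32.74% a GC box, 52.01% a CACCC box and 6.75% an AP-1 element. No match to the cyclic AMP element TGACGTCA, the TEAD element GGAATG, the CArG box or the glucocorticoid response element was found in the 8 promoters, and these motifs occurred in 1.55%, 12.64%, 1.47% and 0.01% of all promoters. The GC content was 64.8% for Klf6, 59.6% for Klf9 and 71.6% for Klf13, above the median of 52.4% over all promoters. A match is a description of letters, and the 250 bases do not cover more distant elements.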

How the data were processed

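RNA of 4 LP and 4 mature libraries was analysed. The authors used cutadapt 4.2 for trimming and Bowtie2 2.3.5.1 for alignment to mm10 (versions from the submitters' processing notes) and deposited raw counts per gene, by Entrez Gene ID. The counting program, its annotation and its strand setting are not given in the sources used here. Bowtie2 does not split reads across introns, so reads over exon junctions may be lost. The study's methods state fewer biological replicates per condition than the 4 libraries in the table, and all were used.

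Of 24594 IDs, 24570 matched RefSeq. Counts were analysed with edgeR 4.0.16 in R 4.3.3 (TMM, filterByExpr by fraction, quasi-likelihood F-test, Benjamini-Hochberg over 12816 genes). The common biological coefficient of variation was 0.393. The standard error was taken from the fold change and F. CPM carry no added count, and log2 CPM for correlations a prior count of 2. Depth was 4410049 to 7791593 counts per library. The scripts were tested on simulated data. Exon lengths and overlaps came from GENCODE for GRCm38, and promoters from RefSeq. DESeq2 1.42.0, the edgeR likelihood ratio test, other scalings and filters, thinned counts, a replicate block and left-out libraries were the alternatives. Tables and figures used Python 3.11.15, pandas 2.3.3, scipy 1.17.1 and matplotlib 3.10.9.

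The members and gene lists were chosen with earlier results of these data known. Named were all members, the called genes of each list with the 4 smallest p-values, any tested gene of the wider family and the 5 genes most like Klf6, of which 1 is not reported here. Tgfbr1, Nr3c1, Fkbp5, Cebpd, Hspa1a, Hspa1b, Btg2, Egr1, Junb, Myc and single cell type markers fall outside this rule and were chosen after their values were seen.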

Additional observations from a re-analysis of the deposited data

Results flagged for a closer look

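The levels of the members and the summed levels of each gene list were examined for a library apart from the other 3 of its fraction, by the gap to its nearest neighbour as a share of the range. Of 40 groups of 4 libraries 2 exceeded Dixon's 95% limit, and chance gives about 2. No single Kruppel-like factor gene was among them. The summed immediate-early and dissociation genes were 16085 CPM in mature replicate 3, against 4797, 4287 and 4240 CPM in the other mature libraries (gap 0.953). The summed immune markers were 3.46 CPM in the same library, against 4.92, 4.99 and 4.97 CPM in the others (gap 0.955). Klf3, Klf4 and Klf6 were also highest among the mature libraries in mature replicate 3, as were the few reads of Klf2 and Klf15.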

How the results depend on the processing

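In 20 alternatives Klf5 and Klf6 kept their direction and stayed under an adjusted p of 0.05, with log2 fold changes from -1.69 to -1.29 for Klf5 and from -1.84 to -1.37 for Klf6 (adjusted p from 9.45e-07 to 0.0387 for Klf6 over edgeR and DESeq2 fits). Klf9 ranged from -1.28 to -0.80 and lost its call in 2 alternatives, and Klf13 from 0.48 to 0.69 and lost its call in 5, all of them with libraries left out. The members called were 4 with all libraries and 2 to 4 with libraries left out, and 2 without both libraries numbered 2, where Klf5 and Klf6 were called. The genes called over the whole table were 1615 to 3414 with libraries left out (1808 without both libraries numbered 1 and 1615 without both numbered 2) and 2917 to 3791 in the other alternatives. Klf10 changed sign without both libraries numbered 3 (-0.0158, range to 0.316 without mature replicate 4), and Klf4 without mature replicate 3 (0.0896, range to -0.5834 without LP replicate 3), and neither was called in any alternative. Fewer libraries were tested in these cases, and no other cause was tested. Scalings moved the median of all genes by at most 0.03 on the log2 scale.

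The library names of each LP and mature library with the same replicate number also start with the same number, but the labels do not say that it marks an animal or a day. The main test did not use the numbers as a pairing, since neither the labels nor the study's methods name one. Correlations of deviations from the fraction means within a number were 0.062 to 0.148 (mean 0.102), over 0.1 for 2 of the 4 pairs. Between different numbers their mean was -0.034, and every LP library correlated best with its own number, so a pairing is possible. With the replicate block 3027 genes were called, 2757 of them shared with the 3161, and the same 4 members were called, with log2 fold changes of -1.54 for Klf6 and 0.57 for Klf13 (adjusted p = 0.0463, edgeR). In the gene lists the block ended the calls of Klf16, Errfi1 and Btg2, all lower in LP. It added Fkbp5, Egr1 and Oxtr as higher and Dcn as lower in LP. Depth left Klf2 and Klf15 without a usable test. With no filter on low counts their adjusted p in edgeR's quasi-likelihood test was 0.442 and 0.166.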
